A study of Homo sapiens and Mus musculus with 74 samples.

Results

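The comparison set ribosome footprints against mRNA, gene by gene, in the brain of wild-type (WT) mice. It used 3 Ribo-seq libraries, which hold the mRNA fragments that a ribosome shields from ribonuclease, and 3 RNA-seq libraries of polyadenylated RNA, 6 of the 74 samples of the series. The deposited read counts were reduced to a single transcript for each gene, chosen by its annotated protein being the longest. Genes were then ranked by the log2 ratio of footprint CPM over RNA CPM, where CPM is the read count scaled to a library of 1000000 reads after TMM normalization. Of 22484 genes with a coding sequence, 16073 had enough reads to be tested.

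The series studies RPL41, the smallest protein of the ribosome, in HEK293T cells and in mice. The brains came from 10-week-old male mice. The knockout (KO) line, in which the whole Rpl41 coding sequence was deleted, was made by CRISPR-Cas9 in zygotes of the C57BL/6J strain. The 6 libraries described here are WT, untreated as far as the labels say, and labelled brain without a region. The same ratio was also computed in the 6 libraries of Rpl41 KO mouse brain and the 6 of WT mouse kidney, for comparison only. The labels give replicate numbers but no animal for each library, so p-values measure the spread between these libraries.

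An mRNA that carries many ribosomes gives many footprints for its share of the mRNA pool, and one whose start codon is rarely reached gives few. The ratio of footprints to mRNA is therefore the usual measure of translation efficiency, with the reservation that a footprint is a position of a ribosome and not a finished protein, so that slow ribosomes count for more than fast ones. Known routes to a low ratio include proteins that bind the 5′ UTR, short reading frames upstream of the main start codon and start codons in a poor sequence context. In the brain, many mRNAs also travel to dendrites, axons and myelin sheaths, where they can be stored before they are read.

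Reads in the 1-transcript table numbered 5251691, 2398154 and 5643606 in Ribo-seq and 29904192, 30780115 and 27404025 in RNA-seq. Pearson correlations of log2 CPM were 0.976 to 0.981 between Ribo-seq libraries, 0.983 to 0.994 between RNA-seq libraries and 0.769 to 0.813 between the 2 assays. The markers of neurons, astrocytes, oligodendrocytes and microglia were all present in every library, with summed neuron markers at 6707 to 7784 in footprints and 6749 to 7059 in RNA, as shares scaled like CPM. A list of kidney markers gave 15.9 to 34.3 and 3.87 to 5.0 on the same scale. Replicate 2 stood apart in both assays by its blood genes (hemoglobins and Alas2), which took 0.710% of its footprints and 0.738% of its RNA reads, against 0.252% to 0.268% in the other libraries. In bulk tissue, fewer cells of a type and less RNA per cell cannot be told apart.

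Footprints departed from mRNA in most genes. The test (edgeR's quasi-likelihood test, Benjamini-Hochberg adjusted p under 0.05) called 5371 genes higher in footprints (33.4%) and 5577 lower (34.7%). The median ratio was -0.01 on the log2 scale, with the middle 50% of genes between -0.75 and 0.73, a 5th percentile of -2.07 and a 95th percentile of 3.34. Genes called at a ratio of at least 1, which is at least 2-fold, numbered 2916 (18.1%) and are called efficiently translated below, and those called at -1 or less numbered 3000 (18.7%) and are called poorly translated. Both names describe the ratio only. At the upper threshold Gm45717 stood just inside at 1.0001 and Itgb4 just outside at 0.9998, and at the lower one Afap1l1 stood inside at -1.0001 and Arhgap11a a still smaller step outside. In 5642 genes (35.1%) all 3 footprint values lay above all 3 RNA values, and in 5919 (36.8%) all 3 lay below. The median standard error of a ratio was 0.17. With library totals alone in place of TMM the median gene stood at 0.24, and 6710 genes were called higher and 4192 lower, so the balance of the 2 directions depends on the scaling.

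**Figure D1:**
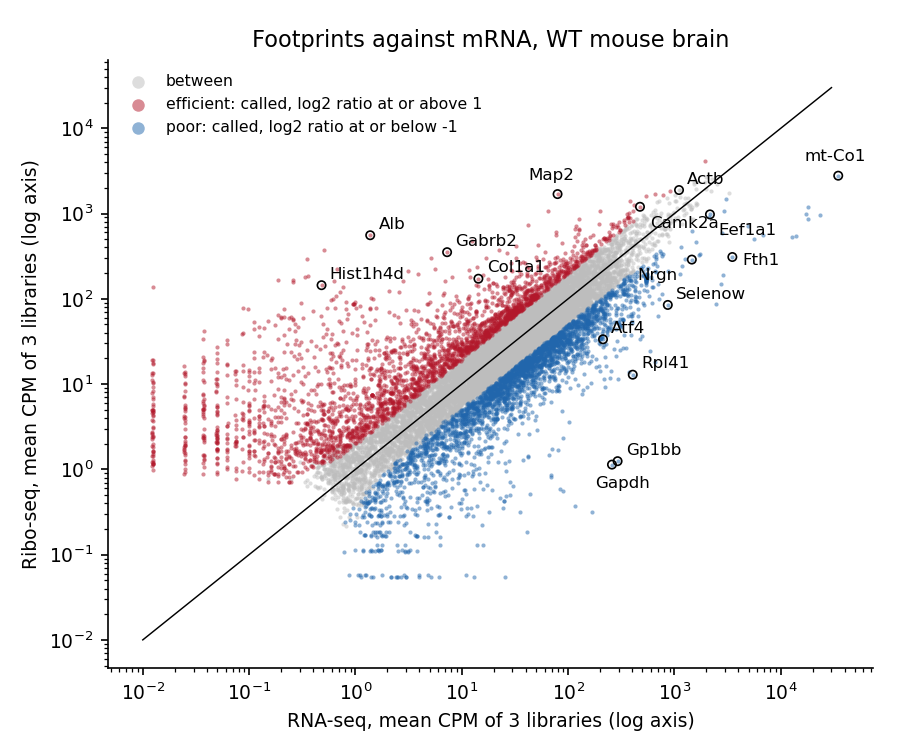
Mean footprint CPM (vertical axis) against mean RNA CPM (horizontal axis) of WT brain, both on log scales, with 1 point per gene for the 15908 genes above 0 in both assays and a diagonal line where both are equal. Efficiently translated genes (red, 2916 in all) spread widely at low RNA, while poorly translated genes (blue, 3000 in all) include mt-Co1, Fth1, Nrgn and Selenow at high RNA.

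The 2 classes differed in more than their ratio, and part of that difference lay in how reads can be counted. RNA under 1 CPM was found in 1074 efficiently translated genes (36.8%), in 3.8% of the genes between the classes and in 0.3% of poorly translated genes. Coding sequence was called repeated where at least 5% of its 28-base words occur elsewhere in the genome, on either strand. It marked 28.3% of efficiently and 20.9% of poorly translated genes against 17.1% between. Exons shared with another gene marked 16.5%, 28.8% and 20.4%. In 14.7% of efficiently translated genes the chosen transcript held under 50% of the RNA reads of the gene's most-read transcript, against 2.0% between and 1.2% of poorly translated genes. Reads of copies, of overlapping genes or of isoforms cannot be assigned with confidence from these counts. For that reason 10108 genes with a complete coding sequence are singled out below as unique-sequence genes. They have little repeated coding sequence and few shared exon bases (under 5% of each). Repeats in their UTRs, on which RNA reads can also fall, were not measured.

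The 12 highest ratios that passed the naming rule were all on scarce mRNA or copied sequence. They ran from 8.37 for Scd4 to 9.73 for Serpina1e, 11 of the 12 had RNA under 1 CPM, 9 held repeated coding sequence, and 7 belong to a list of genes for proteins that the liver secretes into blood. Alb, which encodes serum albumin and has hardly any repeated sequence, had 2957, 2295 and 1692 footprints against 35, 42 and 34 RNA reads. Its ratio was 8.65 ± 0.45 (SE, n = 3 libraries per assay, adjusted p = 6.25e-08). All footprint values of Alb lay far above its RNA values, although the footprint libraries were the shallower ones. The whole list of 37 liver secretory genes, chosen after their values were seen, took 0.171% to 0.430% of footprints and 0.0062% to 0.00864% of RNA reads, and 36 of 37 were higher in footprints with a median of 7.36. In KO brain its median was 6.99 and in kidney 0.82. A list of 26 pancreatic enzyme genes gave 8934 footprints in Ribo-seq replicate 1 but 47 and 91 in replicates 2 and 3, and 356 to 449 reads in RNA-seq. Without Ribo-seq replicate 1 the ratio of Cela1, a pancreatic elastase, changed from 2.11 to -1.42. The part of other tissues or of carried-over material in these values was not tested.

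The 12 lowest ratios were likewise dominated by genes whose reads are shared. They ran from -7.95 for Gapdh to -5.0 for Rpl41, with 8 genes that overlap another gene, 3 with repeated sequence and 11 called lower in KO brain as well. Gapdh, the glycolytic enzyme often used as a loading control, had 8, 4 and 3 footprints against 7402, 7420 and 6024 RNA reads, and 94.3% of its 28-base words occur in 10 or more other places. On its most-read transcript the ratio was -4.63. Gp1bb, a platelet receptor chain, had 11, 1 and 9 footprints against 7974, 9156 and 6443 RNA reads, and 93.0% of its exon bases are shared with another gene.

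Rpl41 itself was among the lowest. It had 70, 37 and 76 footprints against 11532, 12199 and 8981 RNA reads, or 12.0 to 14.3 CPM of footprints against 339 to 448 CPM of RNA, with no overlap (ratio -5.0 ± 0.17 SE, adjusted p = 4.67e-09). Scaled for length the ratio was -4.21. That scaling used the chosen transcript, whose annotated protein of 46 residues is longer than the RPL41 described in the paper. Of the words in the Rpl41 coding sequence, 63.2% are repeated elsewhere in the genome, and their part in the ratio was not tested. In the KO libraries Rpl41 had 2, 4 and 0 footprints and 7, 12 and 6 RNA reads.

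Among unique-sequence genes, 3 measures had to concur before a gene was placed in a stricter class: the ratio itself, the ratio per length (footprints over coding length, RNA over transcript length) and the ratio of the gene's most-read transcript. Of 10108 such genes, 871 (8.62%) were efficiently and 1004 (9.93%) poorly translated by all 3. At RNA of at least 5 CPM, 264 and 843 of 7736 remained. By the ratio alone, 1722 (17%) and 1667 (16.5%) of the 10108 were in the 2 classes.

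At the top of this stricter set stood Stxbp5l, Gabrb2, Mboat1, Gpr165, Kcnj6 and Col1a1. The bases around the start codon are shown for those with an annotated 5′ UTR, because the context of the start codon is a classical determinant of initiation. They come from the GENCODE M21 transcripts on GRCm38, with the third base before the ATG, the ATG itself and the base after it in capitals.
Stxbp5l: gaagtgtttAaaATGAagaagtttaatttc
Mboat1: tgaagatgcAggATGGcagcacggccgccc
Gpr165: aaaggcactGggATGGatgctccaaccaca
Kcnj6: cacaaagaaGaaATGAcaatggccaagtta
Col1a1: tagggtctaGacATGTtcagctttgtggac

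Stxbp5l (tomosyn-2, a regulator of synaptic vesicle release, chr16:37114942-37384962, minus strand) had footprint CPM of 168, 158 and 165 and RNA CPM of 5.81, 5.39 and 9.82. Footprints exceeded RNA in every pairing of libraries, with a ratio of 4.54 ± 0.21 (SE, adjusted p = 3.05e-08), 3.78 per length and 5.01 in KO brain. Gabrb2, a subunit of the GABA-A receptor, had 310, 336 and 411 CPM of footprints and 3.91, 4.37 and 13.6 CPM of RNA. Its ratio of 5.60 ± 0.42 became 3.42 on the most-read transcript, still in the efficient class. Col1a1, the main chain of type I collagen (chr11:94936224-94953042, plus strand), had a nearly constant RNA level of 14.3, 14.2 and 14.5 CPM while its footprints spread over 97.9, 161 and 257 CPM. Even the lowest footprint value was well above the RNA (ratio 3.59 ± 0.29, adjusted p = 1.17e-06). Kcnj6, the GIRK2 potassium channel, had 55.6, 49.9 and 51.1 CPM of footprints against 3.09, 5.25 and 6.76 of RNA (3.38 ± 0.23). Dgki, a diacylglycerol kinase, had 86.3, 79.3 and 73.5 against 7.01, 8.00 and 9.25 (3.30 ± 0.15). Mboat1, a lysophospholipid acyltransferase, was more variable, at 53.7, 99.4 and 37.2 CPM of footprints against 5.44, 6.09 and 5.59 of RNA (3.43 ± 0.30), and none of its values crossed between assays. Gpr165, Tcp11l1, Slc24a4, Fstl4, Faxc and Lars2 completed the 12, at 2.56 to 3.40.

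At the bottom stood mRNAs that were well represented in the RNA pool and nearly absent from footprints. Their start codons are printed in the same way.
Inha: ggcaagtgaActATGGtgagccagcggtct
Pter: acactatcaGgaATGTcttccttaagtggg
Cfp: atagtgttcAaaATGCctgctgaaatgcaa
Slc15a3: aggaaggccAggATGTctgcccctcgcgcg
Mbd6: tcatcacacAcaATGAatggagacaatgcg

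Inha, the alpha subunit of inhibin (chr1:75507077-75510366, plus strand), had 13, 3 and 3 footprints against 1099, 1040 and 913 RNA reads (-4.85 ± 0.29, adjusted p = 1.61e-07). Pter, a phosphotriesterase-related protein (chr2:12924041-13003455, plus strand), had 13, 6 and 15 footprints against 2607, 2708 and 1982 RNA reads in brain (-5.27 ± 0.20). Mbd6, a methyl-CpG-binding domain protein (chr10:127281956-127289018, minus strand), had 40, 10 and 22 footprints against 2311, 2302 and 2398 RNA reads (-4.14 ± 0.20). In all 3 the RNA values lay above the footprint values by a wide margin in every library. Inha (-2.30) and Mbd6 (-2.83) were also called lower in kidney, and Pter was not. Nrsn1, a neuron-specific membrane protein of neurites, combined a high RNA level of 610, 688 and 486 CPM with 20.6, 28.6 and 23.7 CPM of footprints (-4.63 ± 0.19). Cfp (properdin of the complement system), Slc15a3, Fam193b, Rnf227, Dok3, Lrrc10b and the growth factor gene Vegfb lay between -4.61 and -3.50, and mt-Nd1 is described with the mitochondrial genome.

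The start contexts of the 2 extremes did not separate letter by letter: all 10 printed here have a purine at the third base before the ATG. In the strict classes at RNA of at least 5 CPM, a purine stood there in 87.5% of efficiently and 79.1% of poorly translated genes, against 86.3% in the other unique-sequence genes at that RNA level.

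**Figure D2:**
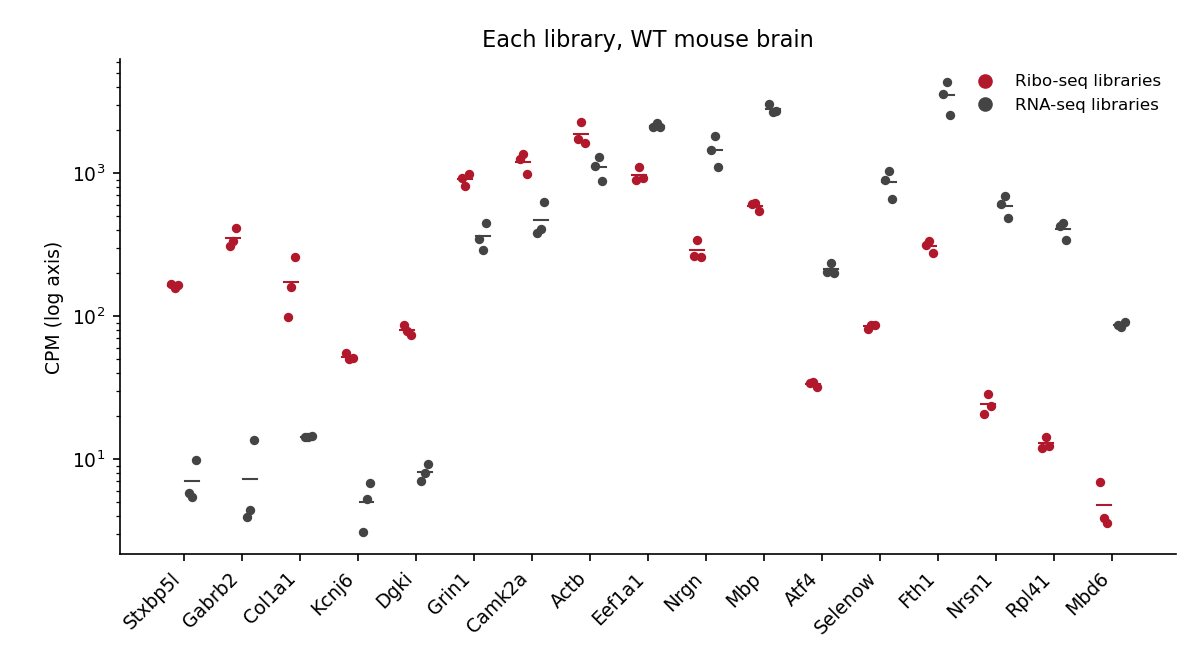
CPM of 17 genes in each of the 6 WT brain libraries on a log axis, with Ribo-seq libraries as red points, RNA-seq libraries as grey points and a line at each assay's mean. The assays are fully apart for genes at either end, such as Stxbp5l (158 to 168 against 5.39 to 9.82) and Nrsn1 (20.6 to 28.6 against 486 to 688).

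In the groups of genes below, counts of called members stand against 33.4% higher and 34.7% lower over all genes. Ribosomal proteins were all on the low side. Of 78 genes, with ratios from -5.0 to -0.19, 77 were called lower, none higher, and 63 were poorly translated, with a median ratio of -1.58 against -0.01 over all genes. Rplp1, an acidic protein of the ribosomal stalk, had 102, 125 and 112 CPM of footprints against 823, 858 and 629 of RNA (-2.77 ± 0.16, adjusted p = 1.17e-07). The one gene not called was Rpl10a, at 131, 159 and 138 against 165, 173 and 149 (-0.19 ± 0.12, adjusted p = 0.173). Its footprint and RNA values overlapped, although it was called lower per length (-0.91) and with counts summed per gene (-0.45). The large and the small subunit had medians of -1.58 (46 genes) and -1.75 (30 genes), and the group's median was -1.98 per length and -1.75 in KO brain. All 78 have coding sequence repeated elsewhere, mostly in processed pseudogenes. The 32 with words found in 10 or more other places had a median of -2.58 and the other 46 a median of -1.40, so the level of the group moved with its repeats, whose part was not tested.

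The rest of the translation machinery was mixed, beside 33.4% higher and 34.7% lower over all genes. Eef1a1, the general elongation factor that brings aminoacyl-tRNA to the ribosome, was called lower at 5246, 2863 and 5695 footprints against 56558, 61666 and 55701 RNA reads (-1.14 ± 0.14). Its neuronal and muscle counterpart Eef1a2 was called higher (0.57 ± 0.14), but did not pass per length (0.09, adjusted p = 0.603). Of 8 elongation factor genes 6 were lower and 1 higher (median -0.52). Of 54 initiation factor genes 13 were higher and 20 lower (median -0.01), from Eif4ebp3 at -3.41, whose exons overlap another gene, to Eif3c at 1.16. Mitochondrial ribosomal proteins, encoded in the nucleus, had 17 higher and 31 lower of 78 (median -0.21).

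The 13 protein genes of the mitochondrial genome, which are read by mitochondrial ribosomes inside the organelle, formed the lowest group. They took 11.5% to 16.9% of RNA reads and 1.04% to 1.22% of footprints, and all 13 were poorly translated (median -3.91, range -4.67 to -2.39, KO brain -3.87). For mt-Co1, a subunit of cytochrome oxidase, the counts were 16148, 6911 and 17813 footprints against 1088359, 1010940 and 701651 RNA reads (-3.64 ± 0.22). For mt-Nd1, the only one of the 13 without repeated or shared sequence, they were 3155, 1149 and 3634 against 397003, 393837 and 234832 (-4.59 ± 0.25). RNA replicate 3 was the lowest for both, but remained far above every footprint library. How well the lysis released mitochondrial ribosomes was not tested. The nuclear partners of these proteins stood near the middle. Of 36 complex I subunits 13 were higher and 5 lower (median -0.01). Of 46 subunits of complexes III and IV and of ATP synthase 8 were higher and 16 lower (median -0.21). The shares over all genes were 33.4% and 34.7%.

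Proteins that fold, move or degrade other proteins were on the high side. Cytosolic chaperones had 16 of 19 higher and 1 lower (median 0.74, per length 0.44). Cct4, a subunit of the TRiC chaperonin, which folds actin and tubulin, had 241, 249 and 216 CPM of footprints against 82.2, 80.0 and 85.5 of RNA (1.51 ± 0.11, adjusted p = 5.54e-07). Hspa1a, an inducible Hsp70, was at 1.77, and Hspa8, its constitutive relative, at 0.64, but at -0.12 per length. Proteasome subunits had 26 of 38 higher and 3 lower (median 0.53), led by Psma5 at 132, 164 and 140 against 58.2, 57.1 and 52.0 (1.38 ± 0.12). Per length the proteasome median was -0.03, close to that of all genes, so the position of that group depended on whether length was divided out. Tubulins had 13 of 17 higher and 1 lower (median 1.08, per length 0.48), with repeated sequence in 16 of the 17. Glycolytic enzymes had 10 of 16 higher and 1, Gapdh, lower (median 0.47, per length 0.23).

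Subunits of the vacuolar proton pump had 11 of 19 higher and 5 lower (median 0.76, but 0.12 with counts summed per gene and 0.42 with at least 10 counts in every library). Atp6v0d2, at the top, had 59, 4 and 5 footprints against 1, 0 and 0 RNA reads, most of them from Ribo-seq replicate 1. Atp6v0e2, at the bottom, had 618, 293 and 606 footprints against 10983, 14011 and 9799 RNA reads (-2.03 ± 0.15). Atp1b1, an accessory subunit of the sodium pump, at -0.26 ± 0.15, did not pass (adjusted p = 0.146), but passed with replicate numbers as a block (-0.27, adjusted p = 0.0488).

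Library totals alone moved the groups together with the median of all genes, so that relative to it complexes III, IV and ATP synthase stood at -0.19 with TMM and -0.18 without, and synaptic scaffolds at -0.14 in both. Other settings moved some groups by more. With counts summed per gene the median was 0.12 for the vacuolar proton pump, -0.35 for polyamine genes, -0.32 for initiation factors, -0.25 for complex I, -0.11 for clock genes, 0.17 for neuropeptide precursors, -0.03 for synaptic vesicle genes and 0.31 for synaptic scaffolds. On the most-read transcripts it was 0.57 for sodium and calcium channels, 0.55 for giant linkers, 0.23 for GABA receptors and -0.11 for synaptic vesicle genes. Leaving out 1 library turned the median of potassium channels (-0.03 without Ribo-seq replicate 3) and of iron genes (up to 0.27, without RNA-seq replicate 2). The groups that lay farthest out kept their side, with ribosomal proteins at -1.98 to -1.32 over the settings tried on all genes, the mitochondrial genome at -4.97 to -3.64 and histones at 2.86 to 5.47, the lowest with at least 10 counts in every library.

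Among the sodium and calcium channel genes named here, pore-forming and accessory subunits lay on opposite sides. Voltage-gated sodium and calcium channels had 19 of 31 genes higher and 6 lower (median 1.00). Scn1a and Scn2a, which form the sodium pore of neurons, had ratios of 1.38 and 1.14, with Scn2a at 565, 452 and 603 CPM of footprints against 266, 219 and 253 of RNA. The accessory genes Cacnb3 (53.0, 51.8 and 50.3 against 169, 175 and 174, ratio -1.74 ± 0.11) and Cacnb4 (-1.05) were poorly translated, and Scn2b and Scn3b stood at -0.83 and -0.85. In Scn2a and Cacnb3 the values of the 2 assays did not overlap. Per length Scn2a was at 0.64 and Cacnb3 at -2.04, so their order was kept on that scale. This grouping by role was made after the values were seen, for the genes named only, and was not counted over all 31. Potassium channels had 19 of 59 higher and 20 lower (median 0.13), close to the 33.4% and 34.7% of all genes, from Kcnk3, a leak channel, at -1.71 to Kcnj6 and the scarcer Kcna10.

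Receptors for the 2 main transmitters differed less. GABA receptor subunits had 9 of 15 higher and 2 lower (median 0.45, per length 1.19). Beside Gabrb2, Gabra3 was at 2.39, but at 0.13 on its most-read transcript. Gabra5, found mainly outside synapses in the hippocampus, was called lower at -0.50, a call lost with library totals alone (-0.25). Among 15 ionotropic glutamate receptor genes 4 were higher and 3 lower (median 0.26), against 33.4% and 34.7% of all genes. Grin1, the obligatory NMDA receptor subunit, had 930, 811 and 981 against 348, 292 and 451 (1.32 ± 0.17, adjusted p = 4.03e-05). Grin2c, the NMDA receptor subunit of cerebellar granule cells, was the reverse at 51.6, 29.0 and 55.3 against 131, 129 and 142 (-1.53 ± 0.19). Gria2, which sets the calcium permeability of AMPA receptors, was at 0.49.

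Synaptic proteins covered the whole scale. Of 26 synaptic vesicle genes 13 were higher and 7 lower (median 0.35). Pclo, a giant scaffold of the active zone, had 624, 491 and 479 CPM of footprints against 112, 98.9 and 139 of RNA (2.19 ± 0.16, per length 1.52). Snap25, the membrane SNARE of transmitter release, had 7555, 4756 and 8234 footprints against 84126, 93480 and 71336 RNA reads (-1.05 ± 0.18), but did not pass per length (-0.35, adjusted p = 0.104). Cplx2, a complexin that clamps the SNARE complex, was at -2.51, but at 0.03 per length on a transcript with a long 3′ UTR. Scaffolds behind the synapse had 9 of 22 higher and 8 lower (median -0.15), against 33.4% and 34.7% of all genes. Dlg4 (PSD-95), at 246, 237 and 202 CPM against 466, 514 and 481, was poorly translated by all 3 measures (-1.09 ± 0.13). Nrgn, neurogranin, a small calmodulin-binding protein whose mRNA is known from dendrites, had 1538, 885 and 1596 footprints against 38880, 49639 and 29170 RNA reads (-2.34 ± 0.20, per length -0.79). The mRNAs of Arc (0.31, adjusted p = 0.203) and Bdnf (-0.22, adjusted p = 0.149), of activity-dependent expression, did not pass. Per length both were called higher (0.60 and 0.88), and with counts summed per gene Bdnf was called lower (-0.43), so Bdnf has no direction independent of the scale. Neuropeptide precursors had 12 of 27 higher and 2 lower (median 0.33), from Avp, vasopressin, at 1.80 to Pcsk1n at -1.21.

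Camk2a and Map2 show how far the choice of transcript can carry a ratio. Camk2a, the alpha subunit of the calcium/calmodulin kinase abundant at synapses, was at 1.34 ± 0.21 on the transcript with the longest protein, with 7321, 3501 and 6107 footprints against 10271, 11081 and 16778 RNA reads. On the transcript with the most RNA reads, which has a longer 3′ UTR, footprints were almost the same (7324, 3502 and 6108) while RNA reads were 30827, 31088 and 33208, and the ratio was 0.11. Map2, a microtubule protein of dendrites, went from 4.41 (9603, 4963 and 9271 footprints, 1387, 1595 and 3403 RNA reads) to -0.91 on a shorter isoform (2298, 1190 and 2364 footprints, 23769, 23680 and 18880 RNA reads). Gsk3b went from 4.46 to 0.26, Nr3c1 from 4.05 to 0.41 and Slc8a1 from 5.87 to 1.08. Over 16069 genes the ranks of the 2 versions were nevertheless close (Spearman's rho 0.943, across genes, which are not independent replicates).

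Myelin genes were split, with 4 of 13 higher and 7 lower (median -0.43, per length 0.26). Mbp, the myelin basic protein, whose mRNA is carried to the sheath before it is translated, had 3535, 1601 and 3349 footprints against 82292, 73270 and 71726 RNA reads (-2.26 ± 0.15, adjusted p = 2.59e-07, per length -1.60). Ugt8a, the enzyme of galactolipid synthesis, was on the other side at 175, 136 and 224 CPM of footprints against 90.0, 70.4 and 76.5 of RNA (1.18 ± 0.17).

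Genes with textbook control of initiation were then read against their elements. Ferritin mRNAs carry an iron-responsive element, a hairpin in the 5′ UTR to which iron regulatory proteins bind and block the ribosome, whereas the transferrin receptor carries such hairpins in its 3′ UTR, where the same proteins protect the mRNA. A search for CNNNNNCAGTGN with 5 paired bases on either side of the loop (G with T allowed, sense strand) found it in 17 of 14982 5′ UTRs (0.113%), among them 5 of the 9 iron genes listed, and in 96 of 15545 3′ UTRs (0.618%), Tfrc among them. The elements of 5 genes are printed from the same annotation, with the bulged C and the loop in capitals.
Fth1, 5′ UTR: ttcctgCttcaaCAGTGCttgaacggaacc
Ftl1, 5′ UTR: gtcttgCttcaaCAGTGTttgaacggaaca
Alas2, 5′ UTR: ttggttCgtcctCAGTGCagggcaacagga
Slc40a1, 5′ UTR: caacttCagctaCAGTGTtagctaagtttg
Tfrc, 3′ UTR: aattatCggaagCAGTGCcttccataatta

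The ferritin chains stood far below their mRNA. Fth1, the heavy chain (chr19:9980598-9985098, plus strand), had 1843, 869 and 1693 footprints against 96407, 118734 and 67977 RNA reads (-3.50 ± 0.21, adjusted p = 1.69e-07). Ftl1, the light chain (chr7:45457944-45459884, minus strand), had 320, 129 and 358 against 10388, 13355 and 8705 (-2.88 ± 0.16). Ferritin genes have processed copies, and 27.0% of Fth1 and 89.3% of Ftl1 words are repeated. Tfrc, the transferrin receptor (chr16:32608920-32632794, plus strand), was efficiently translated by all 3 measures, at 199, 271 and 347 CPM of footprints against 98.1, 102 and 115 of RNA (1.38 ± 0.18, adjusted p = 4.37e-05). Of the other genes with a printed 5′ element, Slc40a1 (ferroportin, -0.03) and Alas2 (heme synthesis in red cells, -0.72) did not pass. Of the 17 genes with a 5′ match, 5 (29.4%) were poorly translated, with a median of -0.55. KO brain gave -3.43 for Fth1 and 1.56 for Tfrc, and kidney -4.28 and 1.06.

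Upstream reading frames hold the main frame of stress-response mRNAs in check when conditions are good. Of 13 such genes 8 were lower and 2 higher (median -0.74). Atf4, the transcription factor at the centre of the integrated stress response, had 34.2, 34.4 and 32.0 CPM of footprints against 203, 234 and 201 of RNA (-2.67 ± 0.12, adjusted p = 2.54e-08) and was poorly translated by all 3 measures. Atf5 (-2.19) and Ppp1r15a, the phosphatase subunit that ends the response (-2.39), were also called lower, and Cebpb (1.04) was called higher. Footprints were counted over the transcript, so ribosomes on the upstream frames are included in these values. Polyamine genes, several of which use upstream frames or frameshifting, had 9 of 11 lower and 1 higher (median -0.76), with the antizymes Oaz1 at -1.56 and Oaz2 at -1.88, although 8 of the 11 have repeated sequence.

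Across unique-sequence genes the number of upstream ATGs in the annotated 5′ UTR ran with the ratio, but weakly. The median went from 0.01 with none (3732 genes) to -0.14 with 1, -0.24 with 2 to 4 and -0.33 with 5 to 9 (518 genes), and was -0.15 with 10 or more (145 genes). Spearman's rho was -0.116 across 7736 genes, which share libraries and base composition, and -0.043 per length. Among these genes at least 1 upstream ATG was found in 44.1% of efficiently and 58.8% of poorly translated ones, against 51.1% between. In the strict classes the 2 ends did not part in this way, with 58.0% of efficiently and 59.9% of poorly translated genes against 50.5% of the others.

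Selenoproteins insert selenocysteine at a TGA codon that otherwise ends translation. All 22 tested have an in-frame TGA before their stop in the annotation, against 42 of 15887 complete coding sequences (0.264%) in all, themselves included. The position of that codon differs between members, as the extremes show, with the codon in capitals.
Txnrd3: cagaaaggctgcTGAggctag
Selenow: tattgtggagctTGAggctataagcccaag

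In Txnrd3, a thioredoxin reductase (chr6:89643988-89675529, plus strand), it is codon 614 of 615, and in Selenow, a small selenoprotein of brain and muscle (chr7:15917208-15922402, minus strand), codon 13 of 88. Txnrd3 had 9.29, 10.8 and 7.95 CPM of footprints against 3.54, 3.60 and 4.87 of RNA (1.20 ± 0.22, adjusted p = 6.15e-04). Selenow had 470, 225 and 533 footprints against 24165, 28391 and 17385 RNA reads (-3.35 ± 0.18, adjusted p = 8.02e-08). Over the list, the 7 genes with the codon in the last 5% of the protein had a median of 0.19 (range -0.40 to 1.20, 2 higher and 1 lower), and the 15 with an earlier codon a median of -1.01 (range -3.35 to -0.15, none higher and 12 lower). The medians were 0.32 and -0.64 per length, 0.00 and -1.16 in KO brain, and 0.41 (7 genes) and -0.96 (12 genes) in kidney. The grouping was made after the values were seen and carries no test, and the proteins with a late codon are longer (median 527 against 226 residues).

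**Figure D3:**
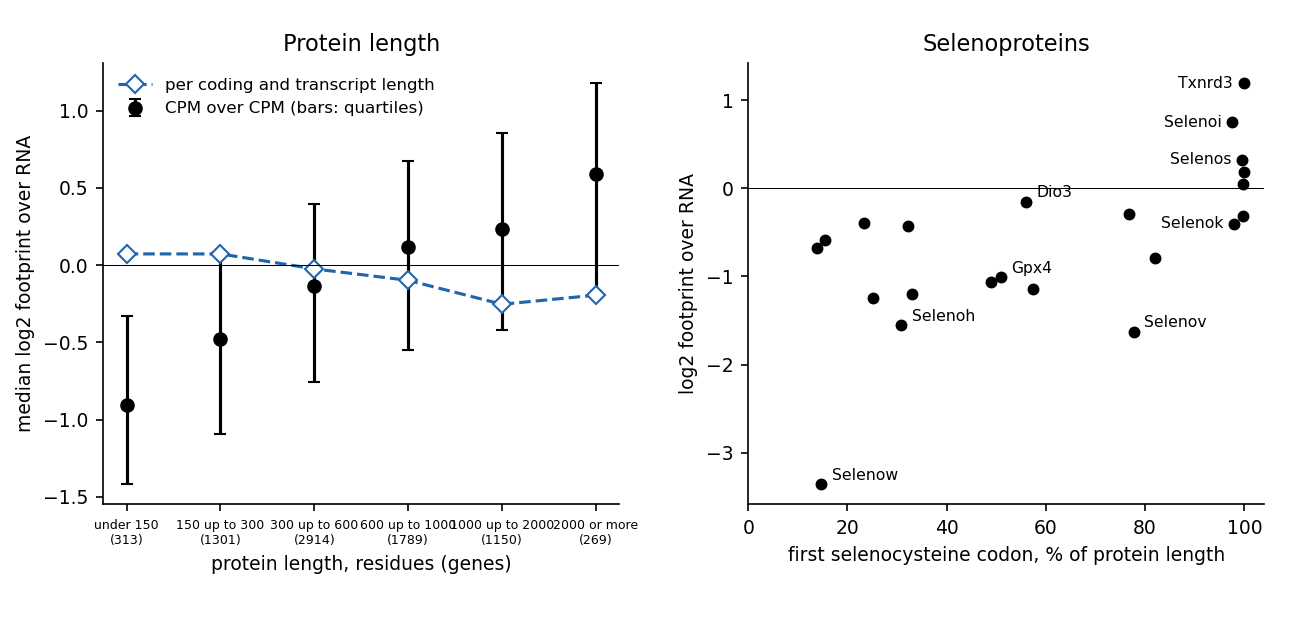
Left, median log2 ratio of unique-sequence genes of WT brain with RNA of at least 5 CPM in bins of protein length, with bars from the lower to the upper quartile and diamonds for the median per length. Right, log2 ratio of 22 selenoproteins against the position of the first in-frame TGA in percent of the protein. The length medians climb from -0.91 (under 150 residues) to 0.59 (2000 or more), and selenoproteins with the codon near the end lie around 0 while Selenow lies lowest at -3.35.

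Replication-dependent histones were the highest group, on mRNAs without a poly(A) tail. Of 66 genes 60 were efficiently translated and 1, Hist1h2bc, was called lower (median 5.21, KO brain 5.50). These mRNAs normally end in a stem-loop, and the RNA libraries were selected for poly(A), so their RNA counts are of a poly(A) fraction. The letters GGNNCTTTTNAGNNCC (sense strand) were found in 43 of the 66 annotated 3′ UTRs (65.2%) and in 57 of 15545 3′ UTRs of all genes (0.367%), while 14 of the 66 have no annotated 3′ UTR of 20 bases. The stem-loops of 3 genes are shown, with the matched letters in capitals.
Hist1h4d: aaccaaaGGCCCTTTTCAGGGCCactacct
Hist1h4h: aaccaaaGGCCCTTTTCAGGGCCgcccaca
Hist1h1c: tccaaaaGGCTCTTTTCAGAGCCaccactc

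Hist1h4d, a histone H4 gene (chr13:23581598-23582735, plus strand), had 829, 414 and 806 footprints against 6, 28 and 5 RNA reads (8.20 ± 0.36, adjusted p = 2.03e-08). Hist1h4h encodes the same histone and was at 733, 365 and 627 against 44, 94 and 28 (5.89 ± 0.33). Hist1h1c, a linker histone, was at 638, 382 and 660 against 584, 1305 and 508 (2.03 ± 0.30). All 3 had more reads in RNA replicate 2 than in the other RNA libraries, and all stood above RNA in CPM in each library. Hist1h2bc, at the other end, had 27.9, 29.8 and 24.2 CPM of footprints against 50.1, 63.4 and 33.2 of RNA (-0.85 ± 0.22), and did not pass per length (-0.32). Histone genes copy one another, with words found in 10 or more other places in 56 of the 66, and the genes with and without a matched stem-loop had medians of 5.28 and 4.94. The part of poly(A) selection and of shared reads was not tested.

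Long proteins had higher ratios. In 7736 unique-sequence genes with RNA of at least 5 CPM the median went from -0.91 (under 150 residues) through -0.48 (150 up to 300), -0.13 (300 up to 600), 0.12 (600 up to 1000) and 0.24 (1000 up to 2000) to 0.59 (2000 or more), with Spearman's rho of 0.315. Per length, rho was -0.101 and the medians 0.07 to -0.25, so the direction depended on whether length was divided out. The giant linkers of the cytoskeleton show both: 13 of 18 were higher and 2 lower, with a median of 0.90 and of -0.03 per length. Map1b, a microtubule protein of axons, was at 1.01 ± 0.14 and Ahnak, a giant scaffold under the membrane, at 1.83 ± 0.15. Reads of RNA replicate 3 leaned to long proteins relative to the other RNA libraries (rho 0.549 with length over the same genes), and without that replicate Map1b and Ahnak kept their calls.

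GC content and the 3′ UTR gave the other 2 gradients. The median ratio was 0.19 in genes with under 45% GC in the coding sequence, 0.01 at 50% up to 55% and -0.65 at 60% or more, and rho was -0.287, or -0.311 per length. For the 3′ UTR the ratio declined from 0.18 (under 250 bases) to -0.25 (4000 or more), whereas per length it rose from -0.55 to 0.81. The 3′ UTR is part of the transcript length that divides the RNA reads, so a longer one raises the ratio per length by construction. Without that division, RNA reads on the 3′ UTR enter the denominator. Neither direction can therefore be read as a difference in translation. These are descriptions across genes, in the same libraries.

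Zinc finger proteins, clock genes and collagens closed the list of groups, to be read beside 33.4% higher and 34.7% lower over all genes. C2H2 zinc finger proteins, a family of transcription factors, had 88 of 381 higher and 162 lower (median -0.27). Circadian clock genes had 2 of 18 higher and 7 lower (median -0.30). Collagen chains had 14 of 44 higher and 10 lower (median 0.21, per length -0.28), and spread from -3.20 to 3.93. Immediate early genes had 5 of 19 higher and 4 lower (median 0.26), with Egr2, a transcription factor, at 1.16. Of 17 proteins of under 60 residues from the ribosome and membranes 1 was higher and 10 were lower (median -1.09, per length 0.16).

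The order of genes came back in Rpl41 KO brain, in libraries that had no part in drawing the classes. There, 5852 of 15962 genes were called higher (36.7%) and 6095 lower (38.2%), with 3211 (20.1%) and 3291 (20.6%) in the 2 classes. Of 2722 efficiently translated genes tested in KO brain, 96.3% were called higher and 91.8% fell in the same class, which is 77.8% of the KO class. Of 2986 poorly translated genes, 98.1% were called lower and 90.8% fell in the same class, 82.4% of the KO class. In the opposite class of KO brain there were 2 and 0 genes. Stxbp5l was at 5.01, Col1a1 at 3.45, Atf4 at -2.73 and Nrsn1 at -5.30. Across 15757 genes Spearman's rho was 0.96. The KO ratios count the same transcripts, with the same repeats, overlaps, lengths and poly(A) selection, so values that arise from counting would recur too. The liver list, for example, had a median of 6.99 there and histones 5.50. The recurrence is thus of the ratio, and cannot separate translation from counting. The difference between the genotypes was not tested here.

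In WT kidney, 4654 of 14669 genes were called higher (31.7%) and 4456 lower (30.4%), with 2786 (19%) and 2473 (16.9%) in the classes. Among genes of the strict classes, 75.7% of 645 efficiently translated ones tested in kidney were called higher there and 19 called lower, and 79.6% of 853 poorly translated ones were called lower and 21 higher. Stxbp5l (4.51), Mboat1 (3.27), Tfrc (1.06), Atf4 (-2.27) and Vegfb (-2.98) lay on the same side in both tissues, while Pter did not. Across 13999 genes rho was 0.741, on the same chosen transcripts.

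The tissues were also compared by the interaction of tissue and assay in one model of the 12 WT libraries, which called 1719 of 16689 genes higher in brain (10.3%) and 2434 lower (14.6%). Many of these calls lay on repeated sequence, of which the kidney RNA-seq libraries held few reads. The mitochondrial gene mt-Co2 had 567343, 524997 and 349883 RNA reads in brain but 2, 5 and 2 in kidney, with 8022 to 11500 footprints there, and Rps29 had 14, 24 and 23 RNA reads in kidney against 10057 to 15889 in brain. By contrast mt-Nd1, without repeats, had 404410 to 640017 RNA reads in kidney. Among 1316 genes with 50% or more of their words repeated, 58 were called higher and 600 lower in brain (4.41% and 45.6%), with a median difference of -1.11, and their median level in brain over kidney was 1.08 on the log2 scale in RNA and 0.01 in footprints. Whether the kidney reads were counted under another setting was not tested. Over the 9990 unique-sequence genes alone, 1031 (10.3%) were higher and 1169 (11.7%) lower in brain, with a median difference of 0.01.

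Some of the poorest mRNAs of brain were less poor in kidney, or not poor at all. Pter had 3443, 1962 and 1838 footprints against 6397, 4448 and 5790 RNA reads in kidney (0.33), where its brain libraries held 6 to 15 footprints and 1982 to 2708 RNA reads. The difference in ratio, brain minus kidney, was -5.59 ± 0.30 (SE, adjusted p = 2.15e-09). Cfp had 95, 142 and 65 RNA reads in kidney against 640 to 845 in brain, with 9 to 30 and 2 to 11 footprints, a difference of -3.23 ± 0.47 (adjusted p = 1.26e-04), and was still called lower in kidney (-1.12). Slc15a3, a peptide and histidine transporter of lysosomes, likewise had more RNA reads in brain (402 to 565 against 39 to 74) and fewer footprints (3 to 6 against 9 to 20), a difference of -3.68 ± 0.53. With counts summed over all transcripts the brain ratios of Pter and Slc15a3 were -3.44 and -1.28 in place of -5.27 and -4.15, so these brain values depend on the transcript counted, and the difference between tissues was not recomputed on the sums. Mbd6 (-1.31 ± 0.27) and Dok3 (-2.42 ± 0.67) were lower in brain as well. In the other direction Col1a1, with 523, 929 and 848 RNA reads and 1209, 577 and 417 footprints in kidney, was higher in brain by 2.19 ± 0.40, and Tcp11l1 by 1.66 ± 0.31. These genes were picked for extreme ratios in the same brain libraries, which enter the difference, so the tests are not independent of the choice. Stxbp5l (0.03 ± 0.57, adjusted p = 0.994) and mt-Nd1 (0.05 ± 0.31, adjusted p = 0.95) did not pass.

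**Figure D4:**
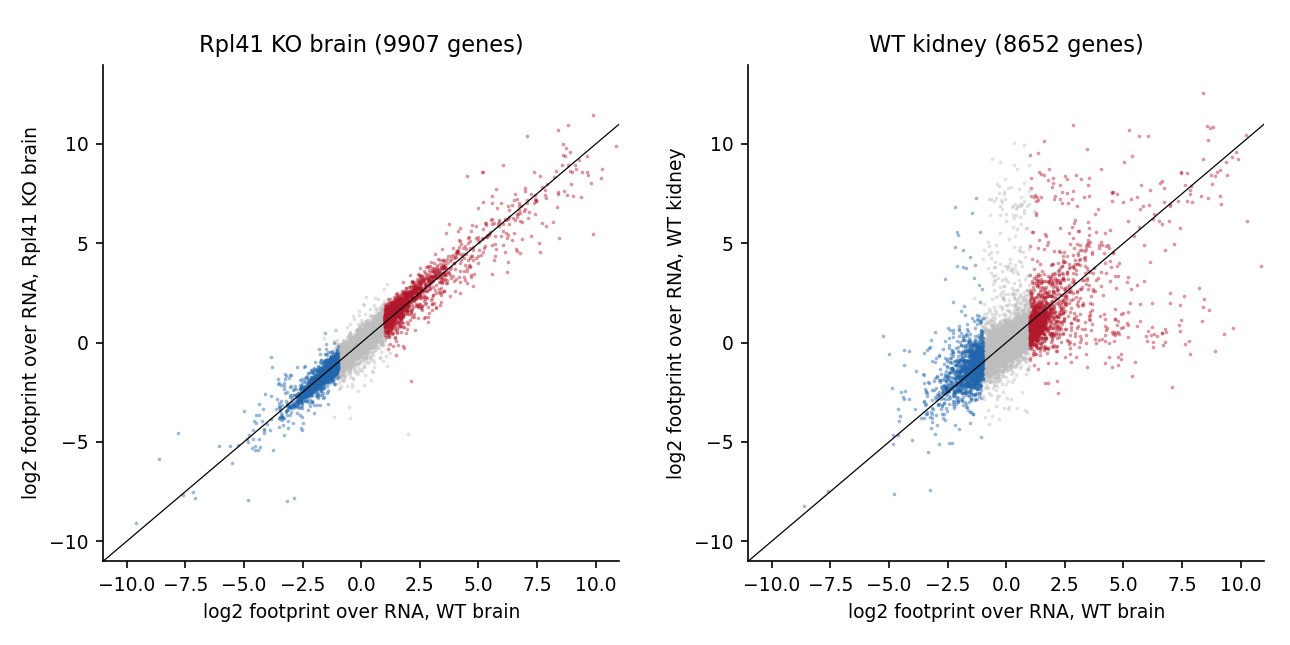
Log2 ratio of unique-sequence genes in WT brain (horizontal) against Rpl41 KO brain (left, vertical) and WT kidney (right, vertical), with 1 point per gene and a diagonal line of equality. The points hug the diagonal in KO brain and scatter more widely in kidney, where Pter (-5.27 in brain, 0.33 in kidney) lies far off it.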

How the data were processed

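The authors prepared Ribo-seq libraries by RNase I digestion of lysates made with cycloheximide, and RNA-seq libraries by poly(A) selection with a directional kit. Per the labels and the study's methods they trimmed reads with cutadapt, removed rRNA reads, aligned to the mouse genome (mm10) with STAR, allowing reads that map to several places, and counted with featureCounts. The strand setting is not given in the sources used here. The deposited values are whole-number read counts per transcript, not normalized. A read that fits several transcripts of a gene enters each of them, and the totals over all transcripts were 9498663 to 21952455 in WT brain Ribo-seq and 89451226 to 94877175 in RNA-seq. A table of human transcripts was not used because its columns carry titles of mouse samples. The number of columns of per-sample values left unmapped in the mouse table was 0.

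Of 142604 transcripts, 141374 matched GENCODE M21 (GRCm38) and 66628 had a coding sequence. They were reduced to 22484 genes by the longest protein. Genes were kept by filterByExpr and scaled by TMM, and Ribo-seq was tested against RNA-seq counts with edgeR 4.0.16 (quasi-likelihood test, limma 3.58.1, R 4.3.3), adjusted by Benjamini-Hochberg over all genes at 0.05. Standard errors are the log2 ratio over the square root of F. Tables were joined with Python 3.11.15, pandas 2.3.3 and numpy 2.4.6. The fit was tested on simulated counts. Alternatives were DESeq2 1.42.0, library totals without TMM, no filter, a minimum of 10 counts per library, sums over a gene's transcripts, the transcript with the most RNA reads, ratios per length (an offset, centred on the median gene), leaving out each library and the replicate number as a block. Restricting the brain ranking and the comparison of tissues to unique-sequence genes, and leaving out the liver and pancreatic lists, were added after seeing the data.

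Replicate numbers came from the sample titles. Deviations of same-numbered Ribo-seq and RNA-seq libraries from their assay's mean correlated at 0.18, 0.432 and 0.267 over 12650 genes. Those of libraries with different numbers correlated at -0.359 to 0.121. The numbers were therefore taken as a possible pairing, which entered only the replicate block. The main fit has no replicate term. Library totals alone moved the median gene from -0.01 to 0.24 and the calls to 6710 higher and 4192 lower.

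Genes named are the 12 highest and 12 lowest ratios among called protein-coding genes that met a read minimum and did not overlap between assays. The minimum was a mean of at least 100 reads in the higher assay and over 3 in the other. The same was done in the strict classes at RNA of at least 5 CPM, ordered there by the weakest of the 3 measures. The rest are the highest, lowest and most abundant member of each list, and genes the study or common practice singles out. Further members were named by role. The members, lists and groupings were chosen with earlier results of these data known, and the liver, pancreatic, channel-role and selenocysteine-position groupings after their values were seen. No list was tested as a set. Some genes that the rule names are not reported here. In the text, 3 counts or fewer in an assay are given without a fold.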

Additional observations from a re-analysis of the deposited data

Results flagged for a closer look

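The ratio of footprints to RNA was compared between WT brain and WT kidney by the interaction of tissue and assay in edgeR's quasi-likelihood test. Of 16689 genes tested, 1719 were higher in brain (10.3%) and 2434 lower (14.6%). Among genes picked by name or for their place at either end of the stricter ranking, 15 of those reported here that also had reads enough for a ratio in kidney passed. The 15 are not a share of a fixed set and cannot be set beside 10.3% and 14.6%. Genes from either end of the ranking were picked in the same brain libraries, so their tests are not independent of the choice. Nrsn1 (adjusted p = 0.0308) and Lrrc10b (adjusted p = 0.00192) passed as well, lower in brain, but had too few kidney reads for a ratio there. Of unique-sequence ones, Nup98, a nuclear pore protein, was lower in brain by a log2 difference of -0.50 ± 0.17 (SE, adjusted p = 0.0392), with a ratio of 1.00 in brain and of 1.5 in kidney. Bdnf was higher in brain by 0.92 ± 0.25 (adjusted p = 0.0129), although its ratio within brain had no direction independent of the scale, as described above. Col1a1 (2.19) and Tcp11l1 (1.66) were higher in brain, and Pter (-5.59), Slc15a3 (-3.68), Cfp (-3.23), Dok3 (-2.42) and Mbd6 (-1.31) were lower. The others have repeated coding sequence, of which the kidney RNA-seq libraries held few reads, and its part in their differences was not tested: Cisd1 at 0.68 ± 0.21, Eef2 at 1.74 ± 0.23, Pabpc1 at 0.66 ± 0.22, Tpt1 at -1.66 ± 0.23, Cycs at -3.76 ± 0.30 and Gapdh at -5.01 ± 0.66.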

How the results depend on the processing

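Of the counts of calls in WT brain, KO brain and kidney, those moved by over 1.5 times were these. With at least 10 counts in every library, 1850 WT brain genes and 1557 WT kidney genes were efficiently translated and 1145 were lower in brain than kidney, since fewer genes are tested. Over unique-sequence genes only, which are fewer and were singled out after seeing the data, 3389 were higher and 3254 lower in WT brain, 1722 and 1667 were in the classes, and 1031 and 1169 differed between tissues. Leaving out 1 library at a time gave 4715 to 5232 higher and 4759 to 5455 lower in WT brain, 2616 to 2949 efficiently and 2664 to 3117 poorly translated, and 1366 to 1850 higher and 1924 to 2689 lower in brain than kidney. Beside the medians near 0 named earlier, medians turned sign per length for myelin genes (0.26), proteins of under 60 residues (0.16), proteasome (-0.03), giant linkers (-0.03) and collagens (-0.28), and for elongation factors over unique-sequence genes (0.57, which is 1 gene). Single genes turned per length for Cycs (1.22), Dnajc5 (1.28) and Mrps25 (0.53), on the most-read transcript for Map2 (-0.91), and without Ribo-seq replicate 1 for Cela1 (-1.42, and up to 2.69 without another library). For these single genes, the cause was not tested beyond the change of denominator, transcript or library that defines each setting. With the replicate block, 5618 genes were higher and 5831 lower, 2897 and 2982 in the classes. The block let Aldoa (0.27), Atp1b1 (-0.27), Egr1 (0.32), Hba-a1 (-0.73), Hbb-bt (0.63) and Tuba1a (-0.26) pass and lost Cela1 (1.40), and changed no other call of a named gene. Footprint libraries were the shallower ones, and 287 efficiently translated genes had 3 or fewer RNA reads and 117 poorly translated genes 3 or fewer footprints in all, which limits their ratios to a direction.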

Other observations

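Long noncoding RNAs, which have no annotated protein and therefore no place in the ranking, were also present in the footprint libraries. Of 16 such RNAs 15 had fewer footprints than RNA for their library, and 13 had a log2 ratio of -1 or less (median -1.70). Neat1, the scaffold of nuclear paraspeckles, had 21, 3 and 11 footprints against 9344, 9683 and 5436 RNA reads, the lowest ratio of the 16 at -6.84. Meg3, an imprinted nuclear RNA of neurons, had 1015, 172 and 459 against 148700, 136812 and 129451 (-5.35). Malat1, another nuclear RNA, had 5173, 596 and 2175 against 40326, 34879 and 22581 (-1.03), with Ribo-seq replicate 1 the highest. Snhg1, a host gene of small nucleolar RNAs, was the only one above 0, at 0.30. These ratios are of mean CPM, without a test, and give a level of fragments from RNAs that are not known to be translated into protein.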
